A study of Mus musculus with 16 samples.

Results

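The SOX proteins are transcription factors with an HMG-box DNA-binding domain, and 7 genes of the neural groups B and C of this family are described here: Sox1, Sox2 and Sox3 of group B1, Sox21 of group B2, and Sox4, Sox11 and Sox12 of group C. They were selected by gene symbol, with earlier results of these data known. They correspond to 8 of the 28432 loci measured, because Sox21 was listed at 2 loci. RNA was sequenced from embryoid bodies (suspended aggregates of stem cells) after 6 days of SFEBq differentiation, a serum-free culture with quick reaggregation that favours retinal tissue. All 4 groups came from mouse embryonic stem cells with GFP knocked in at Rx (Rax, an eye field gene), grown in GMEM with 5% KSR, a serum replacement, and with 2% matrigel added on day 1. WT bodies were untreated, and KO bodies carried a Wdr5 knockout and received no doxycycline. The T12 and T48 groups were the same knockout with inducible human WDR5, a subunit shared by COMPASS/MLL histone methyltransferases, and received doxycycline at the times labelled T12h and T48h. The knockout is a single clone, so any other difference between that clone and WT enters each comparison with WT.

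Group B1 proteins maintain the neural progenitor state and repress neuronal differentiation, and Sox2 also acts with Oct4 in the pluripotency network of stem cells. Sox21 represses many of the targets that group B1 proteins activate and is linked to progenitors leaving the cycle. Group C proteins act later, activating neuronal genes as progenitors differentiate, and are also expressed in mesenchyme and in the developing heart.

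Each group held 2 libraries, called a and b with no order, of 32476673 to 65687435 estimated fragments in named genes. Levels are given as CPM, fragment counts scaled to library size by TMM, and differences as log2 fold changes ± SE from edgeR over 16130 genes, called at an adjusted p under 0.05. All 8 Sox loci were among the genes tested. The submitters call the 2 libraries of a group biological duplicates without saying whether they came from separate cultures, so the p-values reflect only how far these libraries varied, and that variation may be technical. The mouse Wdr5 locus stood at a mean of 186.1 CPM in WT, 30.45 in KO, 332.9 in T12 and 286.9 in T48. Whether fragments of the induced human WDR5 were counted at that locus was not tested. The samples are bulk RNA, in which fewer cells of a type and less RNA per cell cannot be told apart.

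On mm10 (GRCm38) the genes lie on 7 chromosomes: Sox1 at chr8:12395295-12400126, Sox2 at chr3:34650405-34652461, Sox3 at chrX:60891366-60893430, Sox21 at chr14:118233232-118237030, Sox4 at chr13:28948919-28953713, Sox11 at chr12:27334264-27342574 and Sox12 at chr2:152393611-152398063, per GENCODE. Sox1 and Sox2 are on the plus strand and the other 5 on the minus strand. Each is protein-coding, and the annotated transcripts have a single exon except for 1 of the 2 transcripts of Sox12. Coding sequence ran from 828 bases in Sox21 to 1350 in Sox3. The share of G and C in the transcript was 46.5% in Sox11 and 66.4% in Sox3, against a median of 49.1% over 21877 genes. Sox11 was the only member below that median.

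Because the group B and group C genes were to part company in 1 of the groups, the stretches just upstream of 5 of them are shown for comparison, 2 of group B and then 3 of group C. Promoters came from RefSeq (GRCm38.p6), which matched 6 of the 7 genes, and each stretch ends before the gene start of both annotations. The stretches are chr3:34649745-34649994 (plus strand) for Sox2, chr14:118237031-118237280 for Sox21, chr13:28953714-28953949 for Sox4, chr12:27342719-27342968 for Sox11 and chr2:152398064-152398296 for Sox12 (minus strand for these 4). Capitals mark the octamer ATGCAAAT that POU factors bind, the SOX core letters ACAAAG or ACAATG, and the CCAAT box, each searched on both strands.
Sox2: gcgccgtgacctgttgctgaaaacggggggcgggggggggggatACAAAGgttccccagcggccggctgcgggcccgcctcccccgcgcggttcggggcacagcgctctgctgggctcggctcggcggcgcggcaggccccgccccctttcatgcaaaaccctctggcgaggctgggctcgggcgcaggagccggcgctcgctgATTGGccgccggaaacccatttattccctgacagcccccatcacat
Sox21: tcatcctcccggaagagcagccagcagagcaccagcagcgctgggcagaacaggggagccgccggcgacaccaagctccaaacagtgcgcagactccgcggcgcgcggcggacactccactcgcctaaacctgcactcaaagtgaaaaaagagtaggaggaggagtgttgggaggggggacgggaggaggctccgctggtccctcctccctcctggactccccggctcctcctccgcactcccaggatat
Sox4: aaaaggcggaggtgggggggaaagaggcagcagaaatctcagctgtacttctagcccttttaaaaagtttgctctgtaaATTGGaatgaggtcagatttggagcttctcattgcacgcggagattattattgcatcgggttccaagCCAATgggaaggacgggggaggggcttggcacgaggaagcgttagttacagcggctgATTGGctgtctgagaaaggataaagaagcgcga
Sox11: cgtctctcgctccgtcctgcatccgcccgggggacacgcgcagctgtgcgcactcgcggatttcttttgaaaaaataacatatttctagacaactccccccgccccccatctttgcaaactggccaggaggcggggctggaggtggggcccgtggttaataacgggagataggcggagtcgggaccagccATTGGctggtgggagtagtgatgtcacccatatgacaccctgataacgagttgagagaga
Sox12: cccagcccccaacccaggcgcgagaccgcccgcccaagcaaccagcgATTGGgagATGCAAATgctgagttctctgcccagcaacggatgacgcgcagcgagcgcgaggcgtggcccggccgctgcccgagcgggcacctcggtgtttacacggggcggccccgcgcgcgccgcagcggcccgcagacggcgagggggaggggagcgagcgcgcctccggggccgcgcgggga
Over the whole 300-base windows, which also hold the first bases of the transcript, the CCAAT box occurred in 5 of the 6 promoters searched, all but that of Sox21, against 37.4% of 32851 RefSeq promoters. Sox4 held 4 of these boxes. The SOX core letters occurred in the Sox2 window, 206 bases before the start, against 28.6% of promoters. The octamer occurred in the Sox12 window, 195 bases before the start, and in the Sox1 window, 18 bases after it, against 1.74% of promoters. The octamer and the CCAAT box therefore did not split the genes by group, and a match of letters is a description and not evidence of binding. Promoter G and C content was 52.0% in Sox4 and 76.7% in Sox12, against a median of 52.7%.

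Per length, as FPKM, group B1 and group C transcripts were of similar abundance in WT. Sox2 led at 110.6 ± 2.65 FPKM (SD, n = 2), followed by Sox11 at 76.05 ± 1.29. Sox3 at 57.91 ± 5.47 and Sox4 at 55.15 ± 0.418 overlapped between libraries, and Sox12 at 34.55 ± 3.01 and Sox1 at 18.37 ± 0.0646 stood below them. The Sox21 loci were lowest, at 8.12 ± 1.01 and 2.28 ± 1.34 FPKM. In KO, Sox2 still led at 46.65 ± 2.35 FPKM with Sox4 next at 27.09 ± 1.32. Sox1, Sox11 and Sox12 lay between 12.81 and 14.62 FPKM in the single libraries and overlapped there. In T12 the order of WT returned apart from Sox3, whose 88.77 ± 1.08 FPKM overlapped the 86.16 ± 2.95 of Sox11. In T48 all 3 group C genes stood above every group B gene: Sox4 at 75.3 ± 2.79 FPKM, Sox12 at 38.55 ± 3.93 and Sox11 at 29.71 ± 2.18, with Sox2 next at 5.039 ± 0.348.

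**Figure D1:**
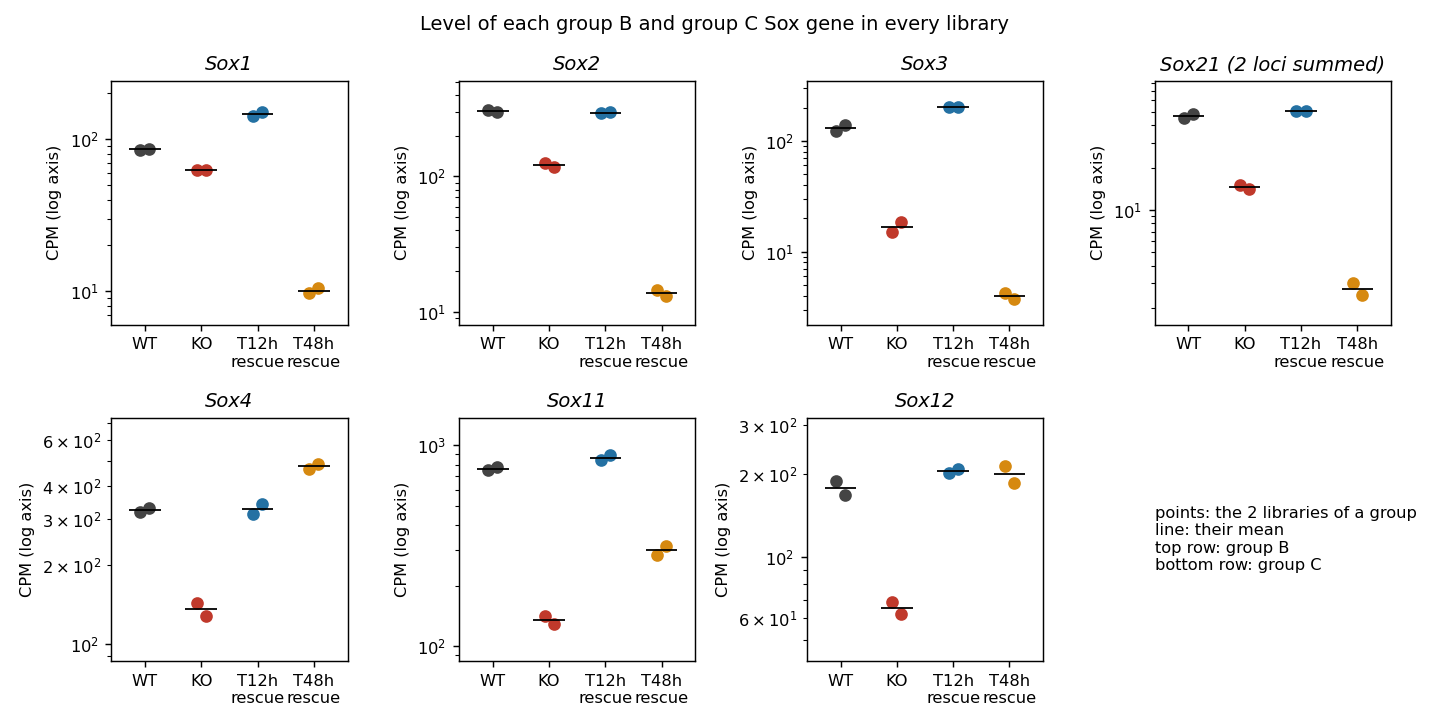
Level of each gene in CPM (log axis, a different range in each panel) in the 2 libraries of WT, KO, T12 and T48; points are libraries, lines are group means, the top row is group B and the bottom row group C. Group B is lowest in T48, where Sox2 is at 14.6 and 13.26 CPM, and group C is lowest in KO, where Sox11 is at 140.2 and 129.1 CPM.

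Loss of Wdr5 was accompanied by lower RNA of every member. Of the 8 loci, 8 were lower in KO than in WT and 0 higher, where 32.4% of all genes tested were called lower and 31.7% higher. The median log2 fold change over the loci was -1.42, against 0.00 over all genes tested. The scaling itself holds the median over all genes near 0, so an RNA change shared by most genes would not show. Under RLE size factors, another scaling, that median was 0.06. The largest fitted decrease was that of Sox21 locus 1 (-3.11 ± 0.52), whose fragment numbers are uncertain as described with that gene, followed by those of Sox3 and Sox11. The smallest was that of Sox1.

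Sox3, the X-linked group B1 gene expressed through the early neural plate, stood at 122.3 and 140.6 CPM in WT and at 15.11 and 18.53 in KO. The libraries of the groups did not overlap, and the difference was -2.98 ± 0.11 (edgeR adjusted p = 1.28e-10). Sox2, the pluripotency and neural progenitor factor, stood at 307.7 and 299.2 CPM in WT and 126.6 and 116.8 in KO. Both KO libraries were lower, with a difference of -1.32 ± 0.07 (edgeR adjusted p = 5.45e-09). Sox1, an early marker of neural commitment, stood at 85.2 and 86.16 CPM in WT and at 62.67 in each KO library. This was the mildest change, -0.45 ± 0.08 (edgeR adjusted p = 0.000222), and KO kept 73.1% of the WT mean for Sox1 against 40.1% for Sox2 and 12.8% for Sox3.

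The mild decrease of Sox1 sat on a chromosome that moved the other way. The 852 genes tested on chromosome 8 had a median log2 fold change of 0.49 in KO against WT, and the genes elsewhere one of -0.02. The same median was 0.49 in T12 and 0.39 in T48 against WT, while in the comparisons within the knockout line it lay between -0.09 and 0.04. Sox1 was thus lower in KO while its chromosome as a whole was higher, and how far the chromosome's shift enters the Sox1 values was not tested. The chromosomes of the other members had medians between -0.19 and 0.17 in every comparison.

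In group C, Sox11 had the largest change. It stood at 752.3 and 774.7 CPM in WT and 140.2 and 129.1 in KO, a difference of -2.50 ± 0.08 (edgeR adjusted p = 2.62e-11). Sox4, at 319.8 and 330.2 CPM in WT, was at 142.9 and 128.3 in KO (-1.26 ± 0.08, edgeR adjusted p = 1.07e-08). Sox12, the most weakly activating member of the group, was at 188.6 and 167.4 CPM in WT and 68.83 and 62.37 in KO (-1.44 ± 0.09, edgeR adjusted p = 1.87e-08).

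Within each group, the mixture of transcripts changed with the amount. Summed FPKM of group B1 was 186.9 ± 2.88 in WT and 68.62 ± 1.04 in KO (SD, n = 2 each), and that of group C 165.8 ± 2.14 and 54.61 ± 2.87. Sox3 made up 30.97% ± 2.45 of group B1 in WT and 11.41% ± 1.91 in KO, and Sox1 9.828% ± 0.117 and 20.62% ± 0.476. Sox11 made up 45.89% ± 1.37 of group C in WT and 25.86% ± 0.0531 in KO, and Sox4 33.27% ± 0.178 and 49.61% ± 0.185. Sox2 therefore remained the leading transcript of group B1 in KO, while Sox4 took the place of Sox11 in group C. These shares are descriptions without a test, and their size in group C depends on the length used for each gene.

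**Figure D2:**
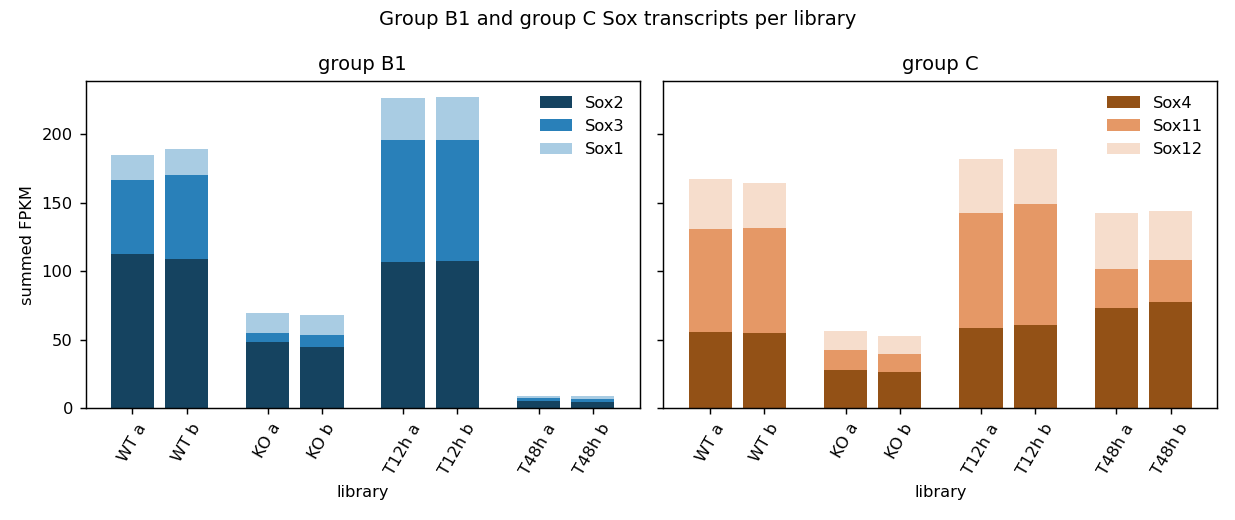
Summed FPKM of group B1 (left) and group C (right) in each library, stacked by gene; bars are single libraries and start at 0. Group B1 sums are 9.213 and 8.663 FPKM in T48, where group C sums are 142.8 and 144.3 FPKM.

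The genes of other tissues differed between these groups at the same time. Summed over the marker lists, pluripotent stem cell genes were at 566.3 to 584 CPM in KO and 118.7 to 121 in WT, and eye field genes at 5.639 to 8.917 in KO and 1330 to 1381 in WT. Endoderm markers were at 312.8 to 318.6 CPM in KO and 55.91 to 61.35 in WT, and trophoblast markers at 100.3 to 106.6 and 15.7 to 16.64. Of the 5 endoderm markers 4 were higher in KO than in WT, where 31.7% of all genes tested were higher. Apoa1 was lower, at -0.69 ± 0.24. No marker of these 4 lists was at 0 in both libraries of KO or of WT. Cer1 of the endoderm list had only 0 and 1 fragments in the WT libraries. The part of these tissue differences in the Sox values was not tested.

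Human WDR5 induced at T12h was followed by higher RNA of every member than in KO. Of the 8 loci, 8 were higher in T12 and 0 lower, where 32.8% of all genes tested were called higher and 32.1% lower. Sox3 was at 203 and 200.4 CPM, 3.59 ± 0.11 above KO (edgeR adjusted p = 2.57e-11), and Sox11 at 843.6 and 888.9 CPM, 2.69 ± 0.08 above it (edgeR adjusted p = 1.19e-11). Among the 6 genes listed at a single locus these had also fallen furthest in KO, in comparisons that share the KO libraries. The other single-locus members were higher than KO by 1.22 to 1.64, with Sox1 at the low and Sox12 at the high end. Markers of other cell types differed in the same comparison. Eye field markers summed to 1592 to 1621 CPM in T12, and pluripotent stem cell markers to 49.16 to 54.7. Endoderm markers summed to 77.95 to 89.11 CPM and trophoblast markers to 6.2 to 6.587 in T12, both below their KO values. Of the 5 endoderm markers 4 were lower than in KO, but Apoa1 was higher by 1.00 ± 0.24. No marker of the 4 lists was at 0 in both T12 libraries, but Elf5 had 0 and 7 fragments and Cer1 1 and 7. The part of these marker differences in the T12 values of the Sox genes was not tested.

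Set against WT, the T12 group differed at Sox1 and Sox3. These were 2 of the 8 loci called higher and 0 were called lower, where 7.9% of all genes tested were higher and 6.11% lower. Sox1 stood at 142.6 and 149.8 CPM in T12, 0.77 ± 0.08 above WT (edgeR adjusted p = 4.68e-05), on the chromosome whose median was 0.49 above WT. Sox3 was 0.62 ± 0.10 above WT (edgeR adjusted p = 0.00119). In both genes the T12 libraries lay above the WT libraries.

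The remaining members did not pass the test in T12 against WT. Sox2 was at 292.5 and 296.2 CPM in T12 with a difference of -0.04 ± 0.07 (edgeR adjusted p = 0.757). Sox4 was at 314.8 and 342.1 CPM and spanned the WT libraries. The differences of Sox11 and Sox12 were 0.18 ± 0.07 and 0.20 ± 0.09 (edgeR adjusted p = 0.121 and 0.164). Group B1 summed to 227.1 ± 0.554 FPKM in T12 (SD, n = 2), of which Sox3 made up 39.09% ± 0.569 and Sox2 47.15% ± 0.169. In WT Sox2 had made up 59.2% ± 2.33.

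**Figure D3:**
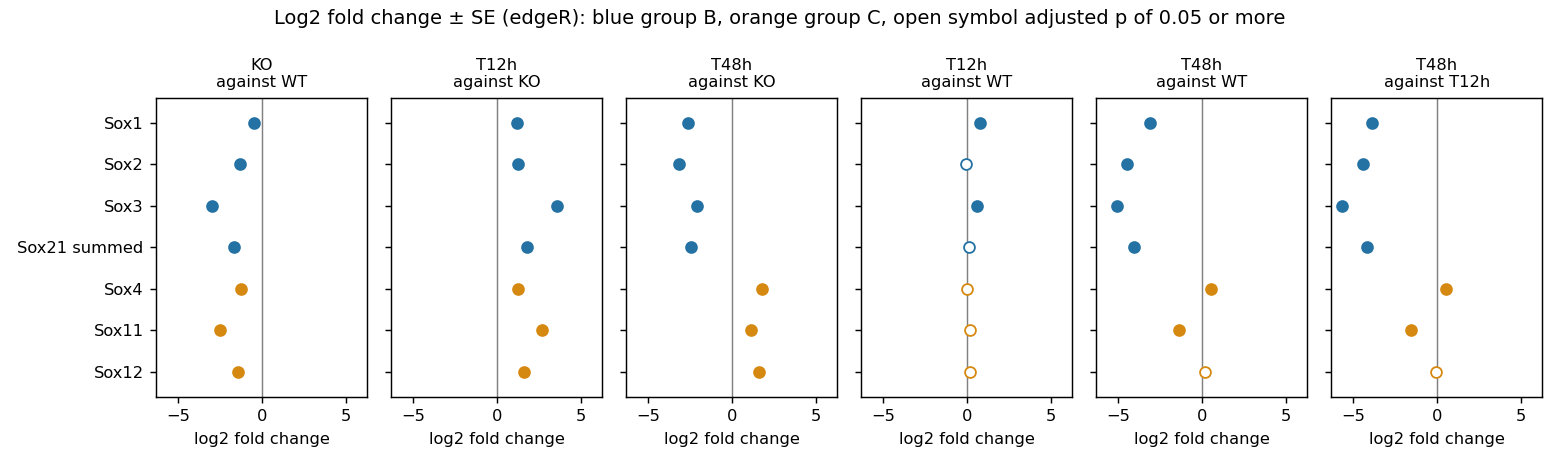
Log2 fold change ± SE from edgeR of each member, with the 2 Sox21 loci summed, in the 6 comparisons between groups; blue is group B, orange is group C, open symbols have an adjusted p of 0.05 or more, and error bars are mostly smaller than the symbols. In T48 against KO the 4 group B genes lie left of 0, down to -3.13 for Sox2, and the 3 group C genes right of it, up to 1.81 for Sox4.

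When human WDR5 was induced at T48h, groups B and C went in opposite directions from KO. All 5 group B loci were lower and all 3 group C loci higher in T48 than in KO, where 33.2% of all genes tested were called lower and 34.2% higher. The direction of each locus thus followed its group, and the group medians were -2.64 for B and 1.61 for C, against 0.00 over all genes tested.

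Sox2 was at 14.6 and 13.26 CPM in T48, on 536 and 541 fragments. The log2 fold change against KO was -3.13 ± 0.08 (edgeR adjusted p = 6.14e-12). Sox1 was at 9.668 and 10.44 CPM (-2.64 ± 0.09, edgeR adjusted p = 3.89e-11). Sox3, already low in KO, was at 4.276 and 3.75 CPM on 157 and 153 fragments (-2.06 ± 0.13, edgeR adjusted p = 1.51e-08). None of the 3 genes was absent, and each T48 library was below each library of the other 3 groups.

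Against WT the T48 means were 11.7% for Sox1, 4.59% for Sox2 and 3.05% for Sox3, and the log2 fold changes were -3.09, -4.45 and -5.04 (edgeR adjusted p = 1.15e-11, 5.69e-13 and 5.59e-12). In that comparison 6 of the 8 loci were called lower and 1 higher, where 23.4% of all genes tested were lower and 23.9% higher. All 5 group B loci were among the 6.

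Sox4 was higher in T48 than in any other group. It stood at 465.4 and 488.6 CPM, 1.81 ± 0.08 above KO (edgeR adjusted p = 3.18e-10), 0.55 ± 0.07 above WT (edgeR adjusted p = 4.02e-05) and 0.54 ± 0.07 above T12 (edgeR adjusted p = 4.81e-05). Sox12 was at 214 and 185.6 CPM, 1.61 ± 0.09 above KO (edgeR adjusted p = 5.35e-09). Against WT it differed by 0.17 ± 0.09 (edgeR adjusted p = 0.146) and against T12 by -0.03 ± 0.09 (edgeR adjusted p = 0.774), so Sox12 passed the test against KO alone. Its T48 libraries overlapped those of WT and of T12.

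Sox11 was intermediate. It stood at 284.3 and 315.8 CPM in T48, 1.16 ± 0.07 above KO (edgeR adjusted p = 1.63e-08) but at 39.3% of the WT mean, where the difference was -1.35 ± 0.07 (edgeR adjusted p = 5.66e-09). The T48 libraries lay above both KO libraries and below every WT and T12 library. Within group C the share of Sox4 in T48 was 52.45% ± 1.57, close to its share in KO, and that of Sox11 20.69% ± 1.37.

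Between the rescues, 6 of the 8 loci were lower in T48 than in T12 and 1 higher, where 25.3% of all genes tested were lower and 24.9% higher. The log2 fold changes were -3.86 for Sox1, -4.40 for Sox2 and -5.65 for Sox3, and -1.53 ± 0.07 for Sox11 (edgeR adjusted p = 1.55e-09). The ratio of group B1 to group C in summed FPKM shows the parting of the groups in single libraries. It was 1.105 and 1.15 in WT, 1.225 and 1.291 in KO, and 1.248 and 1.203 in T12, but 0.06451 and 0.06004 in T48. The fall of both groups in KO and their return in T12 therefore left this ratio nearly level, and T48 alone was far from it.

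Markers of other tissues also differed in T48. Cardiac mesoderm markers summed to 2120 to 2146 CPM in T48, against 75.58 to 104.7 in WT and T12 and 230.9 to 243.3 in KO. Of the KO sum Gata4 alone held a mean of 215.8 CPM. In KO against WT 4 of the 8 cardiac loci were higher and 1 was lower. Endothelial markers summed to 678.5 to 712.3 CPM in T48 and 93.07 to 147.4 in the other 3 groups, from unlike members. In KO against WT 3 of the 4 endothelial markers were higher and 1 lower. Kdr was at a mean of 83.69 CPM in WT, 1.889 in KO and 126.8 in T12. Tek was at 2.575, 54.56 and 5.794 CPM in the same order. Neural crest markers summed to 60.83 to 64.9 CPM in T48 and 69.04 to 72.51 in KO, from unlike members. Of the 7 neural crest loci 3 were higher in T48 than in KO and 3 lower. Sox10 was at a mean of 8.692 CPM in T48 and 0.2582 in KO, and 1 Erbb3 locus at 8.078 and 38.25. Eye field markers were at 18.65 to 20.29 CPM. Neuron markers summed to 22.33 to 28.57 CPM, the lowest sum of the 4 groups. Of the 5 neuron markers 3 were lower and 1 higher in T48 than in T12, where 25.3% of all genes tested were lower and 24.9% higher. The higher one, Stmn2, was at a mean of 14.09 CPM in T48, 5.62 in T12 and 11.66 in WT. Against WT, where 23.4% of all genes tested were lower, 3 were lower, and Stmn2 and Dcx did not pass the test. Endoderm markers were at 287.9 to 295.1 CPM in T48, trophoblast markers at 35.46 to 39.63 and pluripotent stem cell markers at 38.13 to 45.54. Of the endoderm sum Gata6 alone held a mean of 249.2 CPM. In T48 against KO 3 of the 5 endoderm markers were lower and 2 higher. Of the 5 trophoblast markers 3 were lower and 1 higher in that comparison. Over all genes tested 33.2% were lower and 34.2% higher in T48 than in KO. In KO against WT 32.4% of all genes tested were lower and 31.7% higher. Of the 8 marker lists only that of trophoblast held a gene at 0 in both T48 libraries, Elf5. The part of these tissues in the Sox values was not tested.

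Sox21 needs a separate account, because it was listed at 2 loci with identical coordinates (chr14:118233174-118237465). Locus 1 stood at 6.268 and 15.4 CPM in WT, 1.801 and 0.6205 in KO, and 7.329 and 4.648 in T12, with 0 rounded fragments in T48. Locus 2 stood at 38.58 and 32.41 CPM in WT, 13.16 and 13.54 in KO, 43.35 and 45.76 in T12, and 3.023 and 2.476 in T48. The division of fragments between them was erratic even between technical columns of 1 library: locus 1 held 15.62% of the Sox21 fragments in 1 T12 column and 3.084% in its partner. In the 4 WT columns its share was 10.51% to 38.54%. The sum of both loci was a whole number of fragments, within 0.05, in all 16 columns, whereas locus 1 alone was whole in 6 of them. The values of locus 1 are therefore uncertain, and its 0 in T48 came with 49 to 59 fragments per column placed on locus 2.

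The loci differ in their numbering, which runs by chromosome and strand. Of 40 neighbours of locus 2 in the numbering, 40 lie on the minus strand, which is that of Sox21, while 39 of 45 neighbours of locus 1 lie on the plus strand. Which transcript locus 1 stands for is not given in the sources used here.

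**Figure D4:**
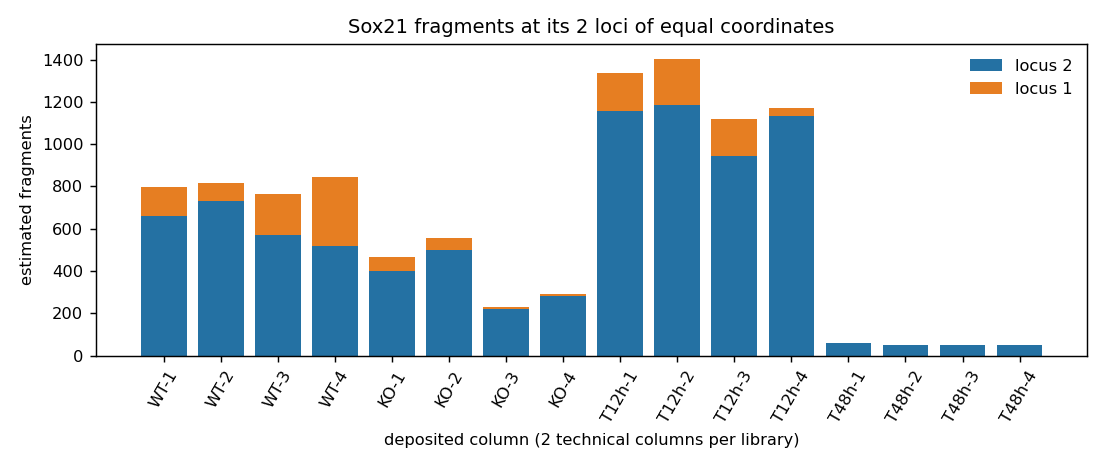
Estimated fragments of Sox21 in each of the 16 deposited columns, 4 per group with 2 technical columns per library, stacked by locus; bars start at 0. The orange part, locus 1, ranges from 85.97 to 325.7 fragments among the WT columns, and the total only from 766 to 845.

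The summed value gives a steadier picture. Sox21 summed over both loci stood at 44.85 and 47.81 CPM in WT, 14.96 and 14.16 in KO, 50.68 and 50.4 in T12, and 3.023 and 2.476 in T48. It fell in KO (-1.67 ± 0.13, edgeR adjusted p = 8.88e-08), was higher in T12 than in KO (1.79 ± 0.13, edgeR adjusted p = 4.16e-08), and was lower in T48 than in KO (-2.41 ± 0.14, edgeR adjusted p = 8.19e-09). Against WT the T12 difference of 0.13 ± 0.12 did not pass the test (edgeR adjusted p = 0.559). This repressor of the group thus shared with Sox2, an activator, high values in WT and T12, a lower one in KO and the lowest in T48. Taken apart, locus 2 changed by -1.41 ± 0.14 in KO against WT and locus 1 by -3.11 ± 0.52 (edgeR adjusted p = 1.44e-06 and 0.000227). No fold is given here for locus 1 against its 0 in T48, since its WT and KO libraries were themselves far apart.

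Overlapping transcripts limit the other loci as well. The deposited span of Sox2, chr3:34560381-34677993, is that of Sox2ot, the long noncoding RNA in whose intron Sox2 lies. Sox2ot shared its locus with Mir1897 and stood at a mean of 4.472 CPM in WT, 1.487 in KO, 7.398 in T12 and 0.2152 in T48. It fell in KO by 1.58 ± 0.43 on the log2 scale (edgeR adjusted p = 0.00611), was higher in T12 than in KO by 2.30 ± 0.43 (edgeR adjusted p = 0.000428) and lower in T48 than in KO, at -2.82 ± 0.55 (edgeR adjusted p = 0.000499). The levels of Sox2ot therefore changed in the directions of Sox2 in these 3 comparisons, at far lower counts. Sox1 was listed over chr8:12385771-12436732, a span that also holds its overlapping transcript, and fragments of the 2 cannot be told apart here.

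Across the 8 libraries the group B loci ran together. Pearson's r of log2 CPM between group B loci lay between 0.92 and 0.99, with or without the uncertain Sox21 locus 1. It is a description over points that share 4 groups. In group C the same r was 0.94 for Sox4 with Sox12, 0.81 for Sox11 with Sox12 and 0.61 for Sox4 with Sox11. Between the groups it ran from -0.41 for Sox1 with Sox4 to 0.76 for Sox3 with Sox11. Sox11 was thus the group C gene nearest to group B in its pattern.

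Among 5397 other genes, the closest to each member by the same r were as follows. Tle1, a Groucho corepressor, followed Sox1 at 0.997, and Nes, the neural progenitor intermediate filament, followed Sox2 at 0.998, at 1 of the 2 loci of its name. Locus 2 of Sox21 was followed by Tdrd7, a tudor domain protein, at 0.997. Locus 1 was followed by Bhlhe41, a basic helix-loop-helix repressor, at 0.994, but this r rests on its uncertain fragment numbers. Sox3 was followed by Ctnnd2, which encodes delta-catenin, at 0.999 and by Lfng, a modifier of Notch, at 0.998. Sox11 was followed by the Wnt receptor Fzd3 at 0.999, and by Ndnf and the nuclear receptor Nr2f2, each at 0.998. Fzd3 stood at a mean of 548.1 CPM in WT, 24.69 in KO, 714.9 in T12 and 91.28 in T48, and the software marked its estimate as failed in 1 of the 4 T12 columns. Sox4 was followed by Wipf1, which binds the actin regulator WASP, at 0.999, and Sox12 by Tead2, a TEAD transcription factor, also at 0.999. Tead2 stood at 412.2, 168.9, 470.6 and 467.4 CPM in the same order, so it shared with Sox12 a low value in KO and nearly equal values in the other groups.

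The rest of the SOX family did not follow 1 pattern. Of 13 other SOX genes 12 were tested, and 5 were lower and 1 higher in KO than in WT. Over all genes tested 32.4% were lower and 31.7% higher in that comparison. Sox9, a gene of glial and cartilage lineages, had a log2 fold change of -2.97 ± 0.11, and Sox5 and Sox6 of group D had -3.30 ± 0.22 and -3.70 ± 0.12. Sox17, an endoderm regulator, was higher in KO by 2.89 ± 0.10 (edgeR adjusted p = 6.54e-11). In T48 against KO 7 were higher and 4 lower, where 34.2% of all genes tested were higher and 33.2% lower. Sox6 was higher by 4.32 ± 0.12, Sox10, a neural crest gene, by 5.09 ± 0.37 and Sox7, an endothelial and endoderm gene, by 1.45 ± 0.12, while Sox17 was lower at -2.59 ± 0.10. Sox14, the other group B2 gene, was at 0 fragments in both T48 libraries and did not pass the test in KO against WT (edgeR adjusted p = 0.0964). Sox9 in T48 was above KO by 0.85 ± 0.11 (edgeR adjusted p = 1.91e-05) and below WT at -2.11 ± 0.11 (edgeR adjusted p = 2.94e-09), as Sox11 was above KO and below WT.

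**Figure D5:**
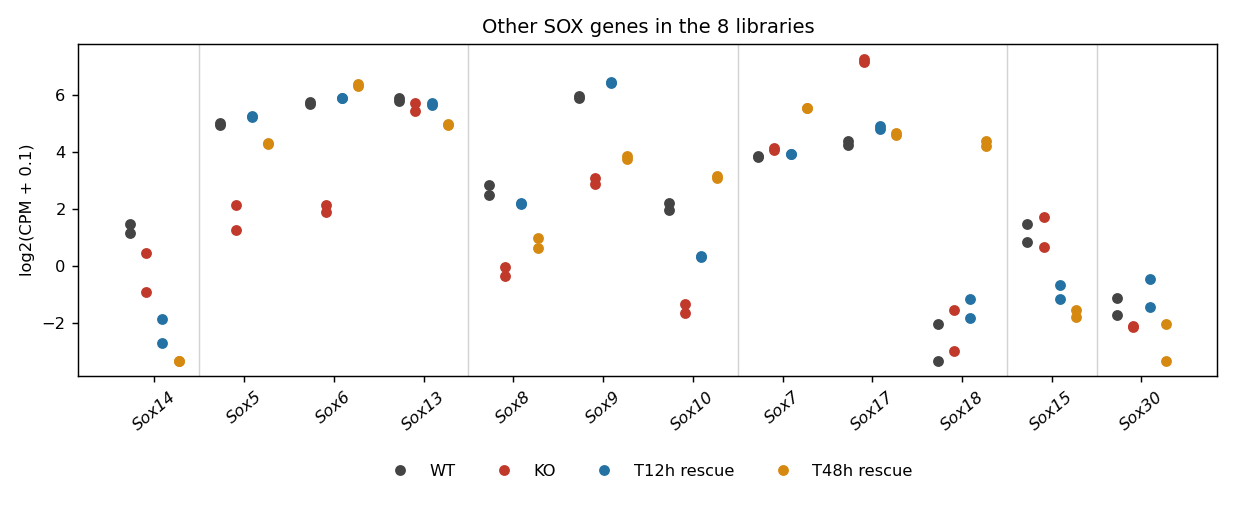
Levels of the 12 other SOX genes tested, as log2(CPM + 0.1), in the 2 libraries of each group; points are libraries and grey lines separate the Sox groups. Sox17 is highest in KO, at 144.1 and 153.3 CPM, and Sox18 in T48, at 18.55 and 21.15 CPM.

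POU factors bind DNA with group B1 proteins, and the partner genes did not move as a block. Of 6 tested, 2 were higher and 4 lower in KO than in WT, where 31.7% of all genes tested were higher and 32.4% lower. Pou5f1, which encodes Oct4, and Pou3f1, a factor of epiblast and of neural cells, were the higher ones, at 3.41 ± 0.16 and 2.57 ± 0.15 (edgeR adjusted p = 1.19e-09 and 1.07e-08). Pou2f1 and Pou3f3 fell, at -0.57 ± 0.11 and -3.01 ± 0.73 (edgeR adjusted p = 0.000578 and 0.00289). In T48 all 6 were lower than in WT, where 23.4% of all genes tested were lower. Their median log2 fold change was -2.93 against -0.04 over all genes tested, with Pou5f1 at -2.54 ± 0.19.

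The KO bodies thus combined lower Sox2 with higher Oct4. Of the 6 genes listed as joint Oct4 and Sox2 targets in stem cells, 5 were found. All 5 were higher in KO than in WT, with a median of 1.92, where 31.7% of all genes tested were higher. Zscan10, a pluripotency zinc finger gene, had 3.22 ± 0.12, Utf1 2.17 ± 0.15 and Nanog 1.85 ± 0.15. In T12 all 5 were lower than in KO and lower than in WT. Over all genes tested 32.1% were lower in T12 than in KO and 6.11% lower than in WT. Nanog was -2.02 ± 0.15 against WT there, in a group in which Sox2 did not pass the test. In T48 against WT 3 were lower, among them Utf1 at -3.73 ± 0.19, and Zscan10 was higher at 0.90 ± 0.12. Over all genes tested 23.4% were lower and 23.9% higher in that comparison.

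Neural progenitor genes linked to group B1 were tested at 12 loci, since Nes was listed at 2. In KO against WT 9 were lower and 3 higher, with a median of -1.54, where 32.4% of all genes tested were lower and 31.7% higher. The widest change was that of Pax6, a regulator of eye and forebrain, at -8.16 ± 0.16. Msi1, an RNA-binding protein of progenitors, fell by 3.18 ± 0.11 and Gli3, a Hedgehog effector, by 1.49 ± 0.07 on the log2 scale. In T48 against WT 11 were lower and 1 higher, where 23.4% of all genes tested were lower and 23.9% higher. Pax6 was at -4.84 ± 0.13 there and Otx2, a forebrain homeobox gene, at -3.55 ± 0.09. Against KO, however, 6 were higher and 5 lower in T48, where 34.2% of all genes tested were higher and 33.2% lower. Cdh2, which encodes N-cadherin, was higher by 2.28 ± 0.09 and Pax6 by 3.32 ± 0.17 while Otx2 was lower at -1.96 ± 0.09, so this list did not share the uniform decrease of the group B loci.

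Neuronal genes linked to group C divided in KO against WT, with 4 of 9 higher, 4 lower and a median of 0.81. Over all genes tested 31.7% were higher and 32.4% lower in that comparison. Stmn2 and Neurod1 were higher by 1.61 ± 0.16 and 2.42 ± 0.36, and Tead2 was lower at -1.29 ± 0.07, beside the decrease of all 3 group C genes. In T48 against KO 3 were higher and 6 lower, where 34.2% of all genes tested were higher and 33.2% lower. Tubb3, the neuronal tubulin, was lower at -2.52 ± 0.17 and Map2 at -1.67 ± 0.19, beside higher Sox4, Sox11 and Sox12. Tead2 was higher by 1.47 ± 0.07 (edgeR adjusted p = 1.35e-09).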

How the data were processed

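RNA-seq of 16 labelled samples (4 groups of 2 libraries that the submitters call biological duplicates, each with 2 technical runs) was analysed. The submitters' processing notes name Cufflinks 2.2.1, TopHat2 2.1.1, deepTools and SAMtools 1.5 and the build mm10. Neither annotation nor strandedness is given in the sources used here, and reads of antisense partners cannot be told apart. Per the file headers, the deposited tables give an estimated count per locus and FPKM, which are scaled by length and library size. The values show that the authors' software multiplied the counts by 1 factor per column (0.63 to 1.29, with 90.9% to 92% of values whole multiples within 0.02 fragments), which was divided out. The 112 companion columns of the samples were not used, except for reading the software's flag words to leave out 8 loci with too many fragments. The 64 loci it marked as failed in at least 1 column were kept, and no member was among them.

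Columns name the group but neither duplicate nor run. Pairs were found by chi-square per degree of freedom, 1.6 to 1.83 within and 9.07 to 16.5 between pairs, summed and rounded. The 5143 unnamed loci, with 3.04% to 3.4% of counts, were left out, which kept 23282. edgeR 4.0.16 in R 4.3.3 (TMM, filterByExpr, quasi-likelihood F-test, Benjamini-Hochberg) fitted all 8 libraries with group as the term, with 4 residual degrees of freedom. The code was tested on simulated data in which far fewer genes changed than were called here. That test does not show how the scaling behaves when most genes change. Alternatives used DESeq2 1.42.0 and limma 3.58.1 on log2(FPKM + 1) and log2(FPKM + 0.1), which understates changes of low genes.

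Members, lists and tests were chosen with earlier results of these data known. Named genes are the members, overlapping loci, up to 5 other SOX genes and up to 4 genes of each other list by smallest adjusted p, and the most alike genes by r, at a mean of 5 CPM or more and a log2 range of 1 or more. Sox18 in the plot of other SOX genes and the uncalled Sox14 value were named after their values were seen. Sox9 in T48 against KO and single genes of the marker lists were likewise named outside these rules. Counts of genes in lists carry no set test. Gene coordinates are from GENCODE (GRCm38) and promoters from RefSeq.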

Additional observations from a re-analysis of the deposited data

Results flagged for a closer look

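For 7 of the 8 Sox loci the T48 effect differed from the T12 effect, both against KO. Since they share the KO libraries, this is the same test as T48 against T12 in edgeR. The log2 differences were -3.86 for Sox1, -4.40 for Sox2, -5.65 for Sox3, -4.02 for Sox21 locus 2, 0.54 for Sox4 and -1.53 for Sox11. For Sox21 locus 1 the fitted value was -11.04, which depends on the prior count because T48 had 0 rounded fragments there. It also rests on the uncertain division of fragments between the Sox21 loci, so it is not a measure of the size of the change. For Sox12 no difference between the rescues was called.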

How the results depend on the processing

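Each of the 8 loci was recomputed in the 6 comparisons under other scalings, filters, tools and samples. Of these 756 values 752 kept their side of the threshold, and 0 reversed direction where either result passed. Uncalled differences could change sign, as for Sox4 in T12 against WT, which ranged from -0.05 to 0.11. The values that changed side were all at Sox21 locus 1. T12 against WT passed without a filter on low counts (adjusted p = 0.0382 in edgeR). T48 against KO did not pass in limma on log2(FPKM + 1), with or without the filter, at -0.34 (adjusted p = 0.309 and 0.362). T12 against KO did not pass in limma without the filter, at 0.84 (adjusted p = 0.0517). Summing the Sox21 loci was chosen after seeing the data. The count of all genes changed in T12 against WT was 2261, 1436 in limma on log2(FPKM + 1) without the filter, and 1070 to 1515 when 1 library was left out. The lowest, 1070, came without WT a, and leaving out T12 a or T12 b gave 1217 or 1316. Upper-quartile scaling moved the T48 against WT median of all genes from -0.04 to -0.16 and the split from 3858 higher and 3769 lower to 3053 and 4791. Under it the medians were -0.15 in T48 against KO and -0.12 against T12, with splits of 4719 higher and 6141 lower, and 3439 and 4746.

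By counts per kilobase of locus span, group C shares were 31.56% for Sox4 and 47.39% for Sox11 in WT. In KO they were 44.96% for Sox4, 28.54% for Sox11 and 26.49% for Sox12, and in T12 29.02%, 48.94% and 22.04%. The cause was not tested. The same was not run for group B1, since the spans of Sox1 and Sox2 hold other transcripts. No paired analysis was possible because the columns carry no replicate number. The fewest fragments of a member were those of Sox21 locus 1, with 23 in KO b and 0 rounded fragments in both T48 libraries.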
